A study of Mus musculus with 7 samples.

Results

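In mouse regulatory T (Treg) cells, 266 of the 797 p65 (RelA) peak summits had an IRF4 summit within 200 bp, 33.4% of the p65 list. These shared sites were chosen by position: a p65 summit from wild-type (WT) cells was taken when the nearest IRF4 summit, of RelA-deficient (p65KO) cells, of WT cells or of both, lay no more than 200 bp away. The IRF4 lists held 4312 summits in p65KO cells and 5630 in WT cells. The overlap itself is therefore what defined the set, and its size and the positions are given as a description. Each group came as 1 list with no values per replicate, so no test between groups was possible and none was run. Intervals are 95% Wilson intervals and cover counting error over summits only. Where intervals are said to overlap, this is a description and does not show that the shares are alike.

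RelA, also called p65, carries the transactivation domain of the classical NF-κB dimer. The dimer is held in the cytoplasm by IκB proteins and enters the nucleus within minutes of a stimulus such as antigen receptor or TNF receptor signalling. IRF4 is a transcription factor of the interferon regulatory family that antigen receptor signals induce in T cells. It usually binds DNA together with partners such as BATF and JUN, and it is needed for effector Treg cells.

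Chromatin immunoprecipitation sequencing (ChIP-seq) was done on spleen Treg cells of C57BL/6 background. IRF4 was precipitated from p65KO cells in 2 samples and from WT cells in 3 samples, each stimulated through CD3 and CD28 with antibodies for 48 h. The p65 precipitation used 2 WT samples treated with PMA plus ionomycin for 30 min, so the factors were mapped under different stimulation. No source used here gives the allele, the Cre driver or the age of the animals, and p65 binding in p65KO cells was not analysed here. Positions are mm9 coordinates, 1-based, and scores are the authors' −log10 significance of each peak, called without an input library. Scores depend on read depth, which is unknown from these lists, so a score of one list is set beside a score of another only as a description.

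The shared sites fell into 3 kinds of place. On placed chromosomes, 106 lay in dense p65 regions, where 3 or more p65 summits follow each other at gaps of up to 50 kb, a class the p65 list itself defines. Another 97 lay outside these regions and are called isolated from here on. The last 63 lay on unplaced contigs (names with random or Un) or on the mitochondrial genome. The share of p65 summits that had IRF4 was alike in each place, at 31.6% (26.7 to 37.0) of 307 isolated summits, 35.6% (30.4 to 41.2) of 298 in dense regions and 32.8% (26.6 to 39.7) of 192 on unplaced sequence. Of the 266, 36.5% (30.9 to 42.4) were isolated. The IRF4 lists lay almost wholly outside the other places. Dense regions held 37.4% of p65 summits, 1.35% of p65KO and 1.78% of WT IRF4 summits, and unplaced sequence held 24.1%, 0.974% and 1.72%. Each dense region ran from its first to its last p65 summit, so IRF4 summits just past an edge were left out of these shares. The 58 p65KO IRF4 summits counted inside were thus fewer than the 63 dense sites with a p65KO partner.

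An IRF4 summit of both genotypes was present at 138 of the 266 sites. These are 17.3% of the whole p65 list, a share that the choice of sites sets and that is no comparison. A further 41 had one in p65KO cells only and 87 in WT cells only. In total 179 p65 summits met a p65KO summit (22.5% of the list) and 225 a WT summit (28.2%). No 2 of the 266 p65 summits had the same IRF4 partner. Their spacing fixed this at a limit of 200 bp, because the next p65 summit was always at least 412 bp away. Among isolated sites 63 of 97 (64.9%, 55.0 to 73.7) had both, 18 p65KO only and 16 WT only. In dense regions these counts were 46, 17 and 43 of 106, and on unplaced sequence 29, 6 and 28 of 63. Most WT-only sites thus lay outside the isolated class. Of the 225 sites with WT IRF4, 61.3% (54.8 to 67.5) also had p65KO IRF4 within 200 bp of the p65 summit, while 64.4% of all WT IRF4 summits had a p65KO summit within 200 bp. For isolated sites the figure was 63 of 79, or 79.7% (69.6 to 87.1), but matching depends on the WT score. Isolated WT summits with p65 had a p65KO summit within 200 bp at 22 of 22 for WT scores of 100 and over, against 258 of 259 with no p65 within 1 kb. At 50 to 100 it was 20 of 22 against 779 of 798, at 25 to 50 11 of 15 against 1410 of 1799, and below 25 10 of 20 against 1031 of 2475. The 95% intervals with and without p65 overlapped in each of these bands.

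Sharing went with the strength of the p65 peak. The p65 list was cut into deciles of score, with decile 1 the highest. In decile 1, with scores of 38.9 and over, 77 of 79 summits had IRF4 (97.5%, 91.2 to 99.3), and 72 of them had it in both genotypes. The share was 81.2% (71.3 to 88.3) in decile 2, 50% (39.3 to 60.7) in decile 3 and 30.4% (21.3 to 41.2) in decile 4. From decile 5 down it stayed between 6.25% and 20%. Isolated summits followed the same order, with 42 of 44 shared in decile 1, 22 of 31 in decile 2 and 7 of 24 in decile 3. In dense regions these counts were 18 of 18, 33 of 36 and 20 of 31. The median p65 score was 22.9 (interquartile range 12.7 to 42.0) at shared sites and 7.50 (5.34 to 11.3) at the other 531. Shared sites reached down to a score of 3.15, and summits without IRF4 reached up to 40.8, so the scores overlapped.

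**Figure D1:**
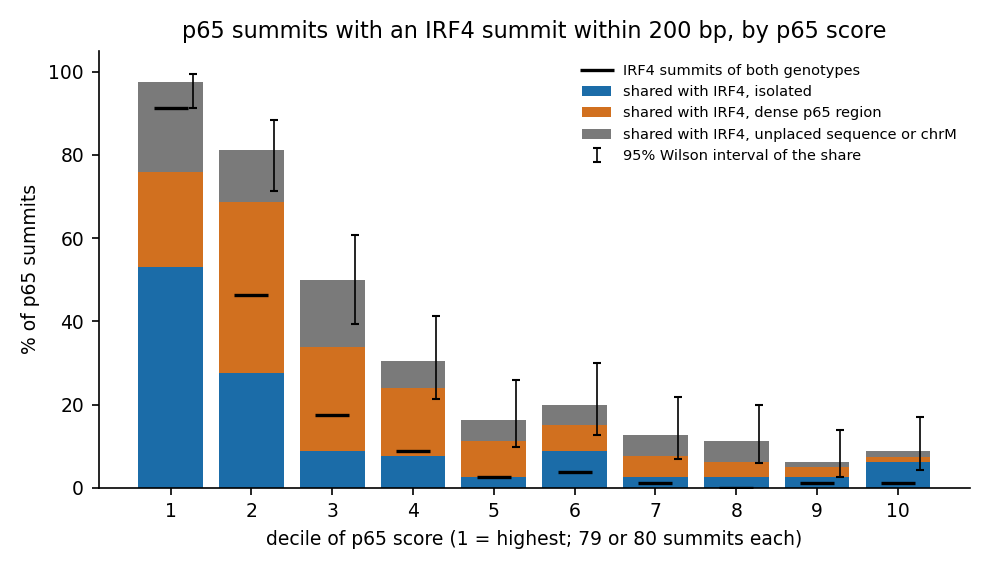
Share of p65 summits with an IRF4 summit within 200 bp (y axis, % of the p65 summits of each decile) by decile of p65 score (x axis, 1 is the highest). Stacked colours give the place, the black dash the share with IRF4 in both genotypes and the error bars the 95% Wilson interval; 77 of 79 summits were shared in decile 1 and 7 of 80 in decile 10.

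The p65 and IRF4 summits nearly coincided. The median distance from the p65 summit was 14 bp (5 to 43.5) to the p65KO IRF4 summit (n = 179) and 23 bp (5 to 85) to the WT IRF4 summit (n = 225). Both factors had their summit on the same base at 6 sites for p65KO IRF4 and 10 sites for WT IRF4. At 104 sites (58.1%, 50.8 to 65.1) the p65KO summit, and at 108 sites (48.0%, 41.6 to 54.5) the WT summit, lay within 20 bp. Neither side was preferred. The p65KO summit lay at the lower coordinate at 89 and the higher at 84 sites, and the WT summit at 112 and 103.

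Beyond the central peak IRF4 summits were fewer out to 150 bp, and few lay past it. Between 21 and 80 bp there were 42 p65KO (23.5%) and 57 WT (25.3%) IRF4 summits. Between 81 and 150 bp there were 27 p65KO (15.1%) and 53 WT (23.6%) IRF4 summits, and beyond 150 bp 6 and 7. Among isolated sites the range from 81 to 150 bp held 8 of 81 (9.88%, 5.09 to 18.3) p65KO and 19 of 79 (24.1%, 15.97 to 34.5) WT IRF4 summits. As 63 isolated sites had both partners, these shares are not independent, and whether they differ was not tested. The median distance to p65KO IRF4 was 13 bp (5 to 37) at isolated, 19 bp (5 to 63.5) at dense and 8 bp (4 to 37.5) at unplaced sites, with interquartile ranges that overlapped. To WT IRF4 the medians were 14, 26 and 31 bp.

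**Figure D2:**
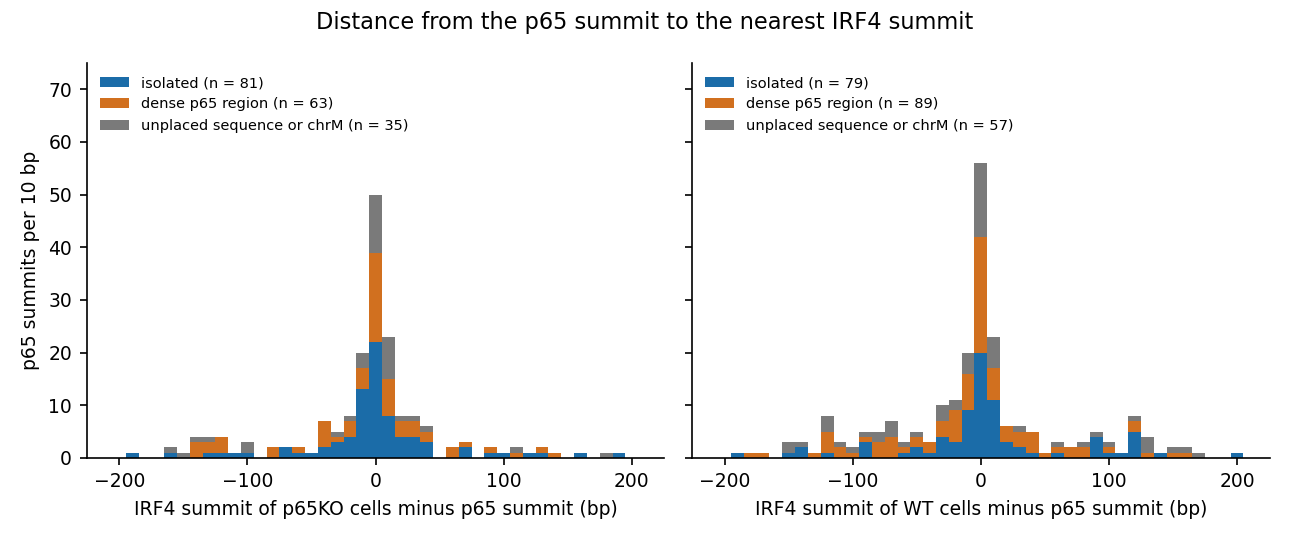
Position of the nearest IRF4 summit relative to the p65 summit (x axis, bp, higher coordinates to the right) against the number of p65 summits per 10 bp (y axis), for IRF4 of p65KO cells on the left and of WT cells on the right, coloured by place. The summits are most frequent within 20 bp of 0, with fewer out to 150 bp on both sides and few beyond.

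At the 138 sites present in all 3 lists, the 3 distances between summits had similar medians. The median distance was 12 bp from p65 to p65KO IRF4, 11 bp from p65 to WT IRF4 and 14.5 bp between the IRF4 summits. The closest of the 3 pairs was p65 with p65KO IRF4 at 49 sites, p65 with WT IRF4 at 48 and the IRF4 pair at 33, with 8 ties. The choice of sites favours p65 here, since its distances were capped at 200 bp, with maxima of 193 and 169 bp. The IRF4 pair had no cap of 200 bp and reached 298 bp, so these values cannot rank the pairs. For comparison, the 3478 isolated IRF4 pairs with no p65 summit within 1 kb had a median distance of 17 bp (7 to 35). Those pairs were themselves matched within 200 bp. The 3 summits together spanned a median of 28.5 bp (8.25 to 107), and 63 sites (45.7%, 37.6 to 54.0) had them all within 20 bp. The span was shorter at stronger peaks, with a median of 10 bp at the 23 sites with p65 scores of 100 and over. It was 14 bp at scores of 50 to 100 (n = 25), 33 bp at 25 to 50 (n = 53) and 72 bp below 25 (n = 37). Isolated sites went the same way, with medians of 9.5, 17, 31 and 58.5 bp.

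**Figure D3:**
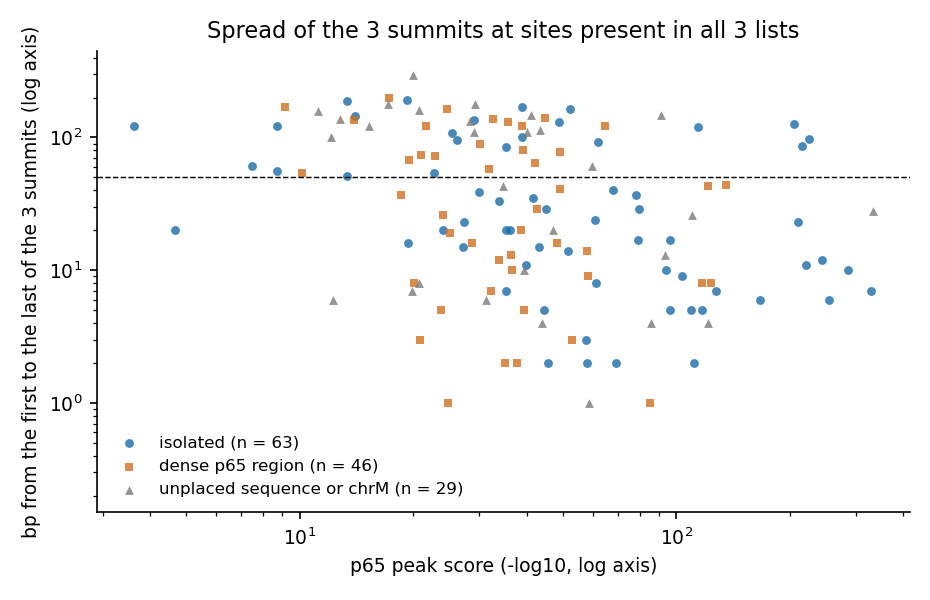
Distance from the first to the last of the 3 summits (y axis, bp, log scale) against the p65 score (x axis, −log10, log scale) at the 138 sites present in all 3 lists, coloured by place. The dashed line marks 50 bp, and 82 of the 138 sites lie at or under it.

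The highest isolated sites had nearly equal scores in all 3 precipitations. Chromosome 9 at 35112987 scored 329 for p65, 351 for IRF4 in p65KO cells and 319 for IRF4 in WT cells, and its 3 summits spanned 7 bp. It ranked 2 in the p65 list and 1 in both IRF4 lists. Chromosome 16 at 11144209 had 285 for p65 against 327 and 305 for IRF4 in p65KO and WT cells. Chromosome 3 at 5860624 had 254 for p65, against 296 and 279. These positions ranked alike, 3 and 4 for p65 and 2 and 3 in each IRF4 list.

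Next came chromosome 16 at 57391605, with 243 for p65 against 273 and 251 for IRF4 in p65KO and WT cells. Chromosome 12 at 3109956 had 224 against 244 and 222, and chromosome 15 at 74917261 had 220.4 against 238 and 212. Chromosome 6 at 103599194 had 210.0 against 246 and 204. On the X chromosome, position 73844362 had 216 for p65 against 180.1 and 222, and position 109484536 had 205 against 169 and 187. Across these 9 sites the p65 score was 0.854 to 1.21 times the p65KO IRF4 score and 0.911 to 1.10 times the WT IRF4 score. The 3 summits spanned 6 to 127 bp, and the wider spans were those of chromosome 12 and the X chromosome.

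The next 3 sites had p65 scores of 0.530 to 0.671 times the WT IRF4 score, under the range of those 9. Chromosome 5 at 147072761 had 167 for p65 against 213 and 249 for IRF4 in p65KO and WT cells. Chromosome 9 at 123371113 had 128 against 171 and 199, and chromosome 11 at 108873155 had 117 against 160.1 and 221. The last 3 of the 15 highest isolated sites were again close to even. Position 21862318 of chromosome 10 had 114 against 95.7 and 99.5, and position 64158941 of chromosome 4 had 111 against 90.8 and 101. Position 77578198 of chromosome 13 had 109.6 against 117 and 111. At 8 of these 15 sites IRF4 scored higher in p65KO than in WT cells. Over all isolated sites in all 3 lists this held at 20 of 63, and over every place at 50 of 138. The median ratio of the p65KO to the WT IRF4 score was 0.855 at the 63 and 0.865 at the 138. It was 0.929 at the 3478 isolated IRF4 pairs with no p65 summit within 1 kb.

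Higher p65 scores went with higher IRF4 scores. Spearman's rho was 0.796 between p65 and p65KO IRF4 over the 179 sites with that partner, and 0.691 between p65 and WT IRF4 over the 225. At the 138 sites in all lists, rho was 0.821 between p65 and p65KO IRF4 and 0.775 between p65 and WT IRF4, while it was 0.856 between the IRF4 lists. The 63 isolated sites gave 0.795, 0.812 and 0.891. These are correlations across sites that share their libraries, given without a test. At the 3478 isolated IRF4 pairs without p65, rho between the genotypes was 0.741, over a narrower range of mostly lower scores.

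**Figure D4:**
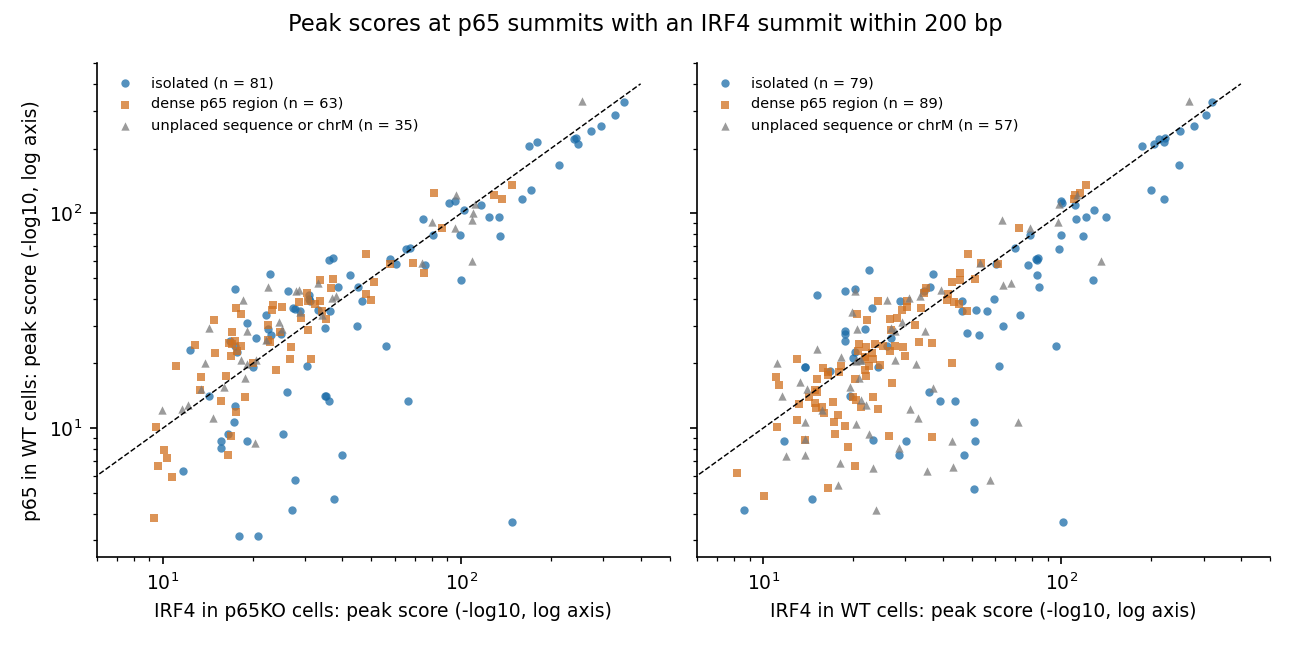
p65 score (y axis) against the score of the nearest IRF4 summit (x axis), both −log10 on log scales, for IRF4 of p65KO cells on the left and of WT cells on the right, coloured by place. The dashed line marks equal scores. At the 23 sites in all 3 lists with p65 scores of 100 and over, p65 had 0.530 to 1.24 times the WT IRF4 score (quartiles 0.952 and 1.10). Well below the line, with p65 under 0.5 times the higher IRF4 score, are 25 isolated, 9 dense and 16 unplaced sites.

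Most sites kept the p65 score near the IRF4 score. It lay between 0.5 and 1.5 times the higher of the site's IRF4 scores at 67 of 97 isolated sites (69.1%, 59.3 to 77.4), 92 of 106 dense sites (86.8%, 79.04 to 92.0) and 43 of 63 unplaced sites (68.3%, 56.0 to 78.4). It was under 0.5 times at 25, 9 and 16 sites and over 1.5 times at 5, 5 and 4. Among sites in all lists, p65 had the lowest score of the 3 at 27 of 63 isolated sites and the highest at 13. In dense regions it was the lowest at 7 and the highest at 16 of 46, and on unplaced sequence the lowest at 3 and the highest at 13 of 29.

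The 25 isolated sites under 0.5 times lay a median of 31 bp from the nearest IRF4 summit, against 6 bp at the other 72. Their median p65 score was 8.82, against 43.4, a difference that choosing them by a low p65 score builds in. Both genotypes had IRF4 at 12 of the 25 and at 51 of the 72. The most uneven was chromosome 8 at 129391748, where p65 scored 3.64 against 148 and 101 for IRF4 in p65KO and WT cells, 122 and 121 bp away. Chromosome 6 at 48683069 had 7.50 against 40.01 and 47.3, and chromosome 5 at 137633056 had 8.73 against 19.2 and 51.5. Chromosome 8 at 15519943 had 24.0 against 55.9 and 96.0, and chromosome 7 at 7230784 had 8.73 against 15.6 and 30.1. These 5 had the lowest ratios of p65 to WT IRF4 score among isolated sites in all 3 lists.

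The 5 highest ratios of p65 to WT IRF4 score among isolated sites in all 3 lists had a p65 score above both IRF4 scores. Chromosome 14 at 43224640 had 41.7 for p65 against 30.8 and 15.2 for IRF4 in p65KO and WT cells. Chromosome 7 at 151047619 had 44.6 against 17.4 and 20.4, with all 3 summits within 5 bp. Chromosome 13 held 2 such sites 1114 bp apart, at 93880613 (36.1 against 27.3 and 23.2) and 93881727 (52.1 against 22.8 and 37.2, with the IRF4 summits 164 and 140 bp from p65). Chromosome 16 at 49027473 had 27.3 against 24.8 and 18.8. Neighbours at about this distance recurred: 16 of the 97 isolated sites had another p65 summit within 2 kb, at 937 to 1510 bp, and for 10 of the 16 that neighbour was shared as well. This was 16.5% (10.4 to 25.1) of isolated shared sites, against 22 of 210 isolated p65 summits without IRF4 (10.5%, 7.02 to 15.4), with intervals that overlapped.

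Sites with IRF4 in only 1 genotype had lower median p65 scores than sites with both, though above the median of the whole p65 list (9.61). Their median IRF4 scores lay under those of the whole IRF4 lists, 27.3 in p65KO and 26.3 in WT cells. Single sites reached IRF4 scores of 109 (p65KO only) and 71.8 (WT only). The 41 p65KO-only sites had a median p65 score of 14.1 and a median IRF4 score of 17.5, and the 87 WT-only sites 13.5 and 19.6. The 138 sites with both had a median p65 score of 39.0. The highest isolated p65KO-only site was chromosome 14 at 112768257, with 35.9 for p65 and 27.8 for IRF4 in p65KO cells, 6 bp apart and with no WT summit for 6446092 bp. It was followed by position 3000793 of chromosome 6 (30.8 and 19.2), position 74666451 of chromosome 13 (29.3 and 35.1), position 57945645 of chromosome 8 (24.0 and 17.4) and position 91356474 of chromosome 5 (23.2 and 12.3). At chromosome 6 and chromosome 13 a WT IRF4 summit lay past the limit, 256 and 367 bp away.

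Among the isolated WT-only sites, chromosome 4 at 40599881 was the highest, with 54.5 for p65 and 22.7 for IRF4 in WT cells. Its nearest p65KO IRF4 summit was 204 bp away, 4 bp outside the limit. Next were position 143434505 of chromosome 7 (43.6 and 18.8), position 39334513 of chromosome 19 (28.2 and 18.8), position 118221115 of chromosome 4 (27.8 and 48.1) and position 34444831 of chromosome 11 (24.0 and 25.9). In the whole set, 11 of the 41 p65KO-only sites had a WT IRF4 summit between 200 bp and 1 kb, and 12 of the 87 WT-only sites had a p65KO summit there. No isolated site with a p65 score of 100 or over had IRF4 in 1 genotype alone: all 16 had both.

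In dense p65 regions, 23 of the 39 regions held at least 1 shared site, and the 4 fullest held 53 of the 106. Chromosome 5 from 14900181 to 15062141 had 18 shared sites among 39 p65 summits, of which 3 had IRF4 in both genotypes, 1 in p65KO only and 14 in WT only. The neighbouring region of chromosome 5, from 15112862 to 15220465, had 12 of 23, with 2, 1 and 9. Chromosome 8 from 19854737 to 20032951 had 12 of 38, with 5, 4 and 3. Chromosome 9 from 3000455 to 3038150 differed from these, with 11 of 15 shared and 10 of the 11 in both genotypes. WT-only IRF4 made up most of the shared sites in the chromosome 5 regions and was absent from the region on chromosome 9. The scores differed too, with median p65 scores of 15.3 and 15.7 at shared sites of the former against 39.4 on chromosome 9. WT-only sites in those chromosome 5 regions had WT IRF4 scores of 12.9 to 24.2. At WT scores under 25, only 22 of 79 dense or unplaced summits with p65 had a p65KO summit. Whether place matters beyond score was not tested.

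The strongest dense sites were on chromosomes 2 and 9. Position 98506942 of chromosome 2 had 135 for p65 against 148 and 121 for IRF4 in p65KO and WT cells, and 98502928 had 122 against 129 and 111. Between them, 98505232 had 85.2 against 86.1 and 72.0, with the 3 summits within 1 bp. This stretch of chromosome 2 is known, as background, for collecting reads in mouse sequencing libraries of many kinds. Elsewhere on the chromosome 181652540 had 124 against 81.3 and 115, and chromosome 9 at 3000455 had 117 against 137 and 111.

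A larger share of p65 summits, shared or not, than of IRF4 summits lay where the chromosome sequence begins. The assembled part of mouse chromosomes starts beside centromeric satellite repeats, and the lowest placed summit of the 3 lists was at 3000344. Below 3.5 Mb lay 31 of the 203 shared sites on placed chromosomes (15.3%, 11.0 to 20.9), on 9 chromosomes, against 37 of 402 p65 summits without IRF4 (9.20%, 6.75 to 12.4). The intervals overlapped. Of placed IRF4 summits, 51 of 4270 in p65KO cells (1.19%) and 52 of 5533 in WT cells (0.940%) lay there. The lists differ in length and cut-off, so the shares differ far more than the counts do. Of the 31, 25 were in dense regions, with 11 of these in the region of chromosome 9. The other 6 were isolated, among them chromosome 12 at 3109956 and chromosome 6 at 3000793 described above.

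On unplaced sequence, chrUn_random alone held 46 of the 63 sites. The highest p65 summit of the whole list, chr1_random at 272742, had 332 for p65 against 255 and 268 for IRF4 in p65KO and WT cells. On chrUn_random, 5873013 had 121 against 96.3 and 113, 5249487 had 110.0 against 111 and 98.5, and 5813290 had 93.0 against 109 and 63.2. Position 242368 of chr9_random had 101 for p65 and 109 for p65KO IRF4, with the nearest WT IRF4 summit 968 bp away. The 4 shared sites on chrY_random, of 50 p65 summits there, all had IRF4 in WT cells only. On that contig the p65KO IRF4 list held 0 summits and the WT list 4, so a p65KO partner was not possible there. The mitochondrial genome held 2 shared sites of 9 p65 summits, 1 of each genotype alone, with p65 scores of 7.38 and 8.54.

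The IRF4 scores of p65KO and WT cells were set side by side at isolated WT IRF4 summits with p65 within 200 bp and at those with no p65 within 1 kb. The ratio of the p65KO to the WT IRF4 score had a median of 0.988 (0.823 to 1.09) at the 22 sites with p65 and a WT score of 100 or over, and 0.917 (0.772 to 1.07) at the 258 without p65. In the next band, of WT scores from 50 to 100, it was 0.550 (0.458 to 0.768) at the 20 sites with p65 and 0.838 (0.642 to 1.05) at the 779 without. It was 0.785 (n = 11) against 0.844 (n = 1410) at 25 to 50, and 0.958 (n = 10) against 1.14 (n = 1031) below 25. A WT summit beside p65 was counted in the place of its p65 summit. The bands were cut on the WT score, which is also the denominator, so band and ratio are not independent. They were chosen after the data were seen.

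In the band from 50 to 100 the IRF4 score of p65KO cells was under 0.5 times that of WT cells at 7 of the 20 sites with p65 (35.0%, 18.1 to 56.7), against 13.4% of all 799 matched isolated summits of the band. The lowest was chromosome 12, where p65 at 68160470 scored 33.7 and IRF4 22.1 in p65KO against 72.4 in WT cells. Next came chromosome 5 at 137633056, described above, with a ratio of 0.373. Chromosome 18 at 82390529 had 60.6 for p65 and, for IRF4, 36.0 in p65KO against 83.1 in WT cells. The 5 highest ratios were 0.960, 0.962 and 0.979 at 3 neighbouring sites of chromosome 10 (22168130, 21862318 and 21977959), 0.996 on chromosome 13 at 44965138 and 1.26 on the X chromosome at 139917606. These sites were chosen after their values were seen.

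The low median depended on the band. With bands of 40 to 80 and 60 to 120 it was 0.687 (n = 16) and 0.704 (n = 21), against 0.805 and 0.861 without p65, still lower but by less. With dense and unplaced sites added it was 0.704 (n = 30). At the 10 dense or unplaced sites of the band from 50 to 100 the median was 1.16, the other direction. Whether the difference exceeds that between replicates was not tested, since the lists hold no replicate values.

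**Figure D5:**
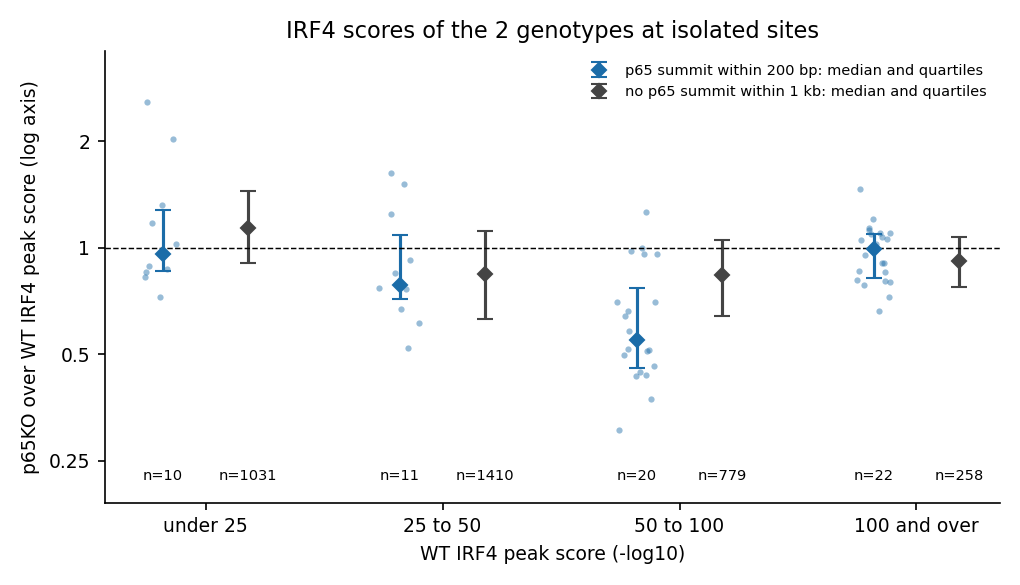
Ratio of the p65KO to the WT IRF4 score (y axis, log scale) at isolated matched IRF4 summits, by WT IRF4 score (x axis, −log10). Blue points are single sites with p65 within 200 bp, and diamonds with bars are medians with quartiles, blue with p65 and grey with no p65 within 1 kb; the medians are 0.550 and 0.838 in the band from 50 to 100.

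How alike the 3 lists were at each site was described by position and score, although unequal read depth alone can make scores differ. All 3 summits lay within 50 bp and all 3 scores within 1.5 times of each other at 47 of the 138 sites in all lists (34.1%, 26.7 to 42.3). There were 21 of 63 isolated sites, 20 of 46 in dense regions and 6 of 29 on unplaced sequence. By p65 score they were 16 of 23 at 100 and over, 13 of 25 at 50 to 100, 14 of 53 at 25 to 50 and 4 of 37 below 25. These bands were cut on the p65 score, which is also 1 of the 3 scores compared. The IRF4 lists had the stricter cut-off (1e-06 against 0.05), so unlike scores at low p65 scores are partly built in. Among isolated sites of 100 and over the highest score was a median of 1.20 times the lowest, and below 25 it was 3.73 times. Below 25 the ratio was smaller elsewhere, with 1.44 in dense regions and 1.64 on unplaced sequence, and 1.70 over all sites. An input library, an IgG control and a list of high-signal regions were not used here, so the part of antibody-independent signal in these sites was not tested.

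The 200 bp limit passed through a thin part of the distances. Just inside were chromosome 6 at 30754730, 197 bp from a WT IRF4 summit with a p65 score of 19.2, chromosome 12 at 80747775 at 193 bp (7.50) and chromosome 2 at 181663949 at 176 bp (18.9). Just outside were chromosome 5 at 22892770 at 201 bp (7.50), the mitochondrial genome at 14893 at 214 bp (6.46) and chromosome 2 at 122507896 at 228 bp (26.9). Of the 531 p65 summits that were not shared, 50 had an IRF4 summit between 200 bp and 1 kb.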

How the data were processed

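The authors deposited 3 lists of 1 bp peak summits, 1 per group, and each sample's label names its group's list. The value of each summit is the authors' −log10 significance; no source used here says whether of p or q. Peaks were called with no input at q cut-offs of 1e-06 (IRF4) and 0.05 (p65), per the file headers (list and peak names). The submitters' processing notes name MACS2 2.1.0, Subread, featureCounts and build mm9 with no role; no source used here says how replicates were merged. Nothing says that samples came from separate animals, and read depth is unknown.

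Summits were made 1-based and matched to the nearest IRF4 summit within 200 bp. The matching was tested on simulated data. No test was run: summits are not replicates. The sites, places and comparisons were chosen with earlier results of these data known. Sites named are the 15 highest isolated, 5 highest dense, 5 highest unplaced, 5 highest of each single genotype, 5 highest and 5 lowest ratios of p65 to WT IRF4 score among isolated sites with both IRF4 summits, and the 3 nearest each side of the limit; others are marked in the text. No genome or annotation of mm9 was used here, so genes and sequences are not given. Tables were handled with pandas 2.3.3 and numpy 2.4.6 in Python 3.11.15, intervals came from scipy 1.17.1 and figures from matplotlib 3.10.9. Alternatives were other distance limits, stronger summits, IRF4 lists of equal length, autosomes only, merged summits, mutual nearest neighbours and isolated sites alone.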

Additional observations from a re-analysis of the deposited data

How the results depend on the processing

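No paired analysis was possible because each group came as 1 list, and for that reason leaving out a replicate was not possible either. Read depth limits every score and is unknown. At a limit of 100 bp, 28.6% of p65 summits were shared, 45.6% of these in both genotypes, and the median distance to WT IRF4 was 11.5 bp. At 500 bp 2.09% of shared sites had an IRF4 partner in common with another. At 1 kb this was 20.9%, 39.6% of p65 summits were shared, the median p65 score was 19.8, and the median distances were 23 bp to p65KO and 46 bp to WT IRF4. With summits above each list's median, 122 sites remained, 64.8% in both genotypes and 47.5% isolated, with a median p65 score of 43.0. Their median distances were 7 bp to p65KO and 8 bp to WT IRF4, and rho between p65 and WT IRF4 was 0.807, against 0.691 for all 225 sites. Isolated sites alone were 97, with 64.9% in both genotypes, a median p65 score of 30.8 and 21 alike in all lists. With IRF4 lists of equal length 29.2% were shared, and on autosomes 47.9% were isolated. Chosen after seeing the data, a narrower limit on the spread of the 3 scores left 20 alike sites, against 47, and a WT score band of 60 to 120 gave a p65KO over WT ratio of 0.704, against 0.550. The correlation of p65 with p65KO IRF4 moved by less than 0.1 in the 9 alternatives run, but not all of them could move it. IRF4 lists of equal length trimmed only the WT list, and mutual nearest neighbours could drop no site at this spacing of p65 summits. Merged summits left it at 0.796 as well.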
